A study of Mus musculus with 6 samples.

Results

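The cytosolic ribosomal protein genes are the genes for the protein subunits of the ribosome that translates nuclear-encoded mRNA. They were taken as the protein-coding genes with a GENCODE mouse symbol of the form *Rpl* or *Rps* plus a number, with or without a final a, x, y or l, together with *Rplp0*, *Rplp1*, *Rplp2* and *Rpsa*. This gave 80 of the 54331 listed genes, 49 of the large (60S) subunit and 31 of the small (40S) subunit. A level high enough for testing, 1 TPM on average, was reached by 78 of them, 47 large and 31 small subunit genes.

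The study asked how active AKT changes cells on the way to induced pluripotency. Mouse embryonic fibroblasts (MEFs) from male E13.5 embryos of mixed C57BL/6, DBA/2 and ICR background, which carry an *EGFP* transgene under *Oct4* control, were infected with retroviruses for OCT4, SOX2 and KLF4 and for AKT-MER, a myristoylated AKT joined to a modified estrogen receptor. From 3 days postinfection (dpi) 3 wells received 4-hydroxytamoxifen (4OHT), the ligand that switches AKT-MER on (OSKA + 4OHT), and 3 wells received ethanol vehicle (OSKA − 4OHT), so the control cells carry the same 4 retroviral genes. PolyA RNA of each well was sequenced at 10 dpi as a mixture of all its cells, of which only some form colonies with active *Oct4*-EGFP. RNA of cells that received 4OHT without AKT-MER was not analysed here. The wells of a group come from 1 infected culture as far as the methods state, so the p-values measure the spread between wells. In such bulk RNA, fewer cells of a type and less RNA per cell cannot be told apart.

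A ribosome holds 1 copy of nearly every one of these proteins beside its ribosomal RNA, and the genes are among the most highly expressed of any growing cell. Their mRNAs begin with a cytosine followed by a run of pyrimidines, the 5′ terminal oligopyrimidine (TOP) motif, through which the kinase mTORC1, a relay of AKT signaling, controls how well they are translated. Mouse ribosomal protein genes have left many processed pseudogenes, intronless copies made from their mRNA, so that short reads can match both the gene and its copies.

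The start sites of 7 genes are shown first, because this mRNA class is recognised by the sequence there, and 5 of them have a pyrimidine run at the annotated start. Each is a window of 30 bases of RefSeq sequence (GRCm38.p6) on the strand of the gene, in which base 16 is the annotated start, and capitals mark a C followed by at least 4 more C or T that begins within 5 bases of that start. *Rps6* encodes the ribosomal protein phosphorylated by S6 kinase, and *Rpl13a* and *Rps18* are widely used as reference genes. *Rpl27a* has one of the longest runs. *Rps9* lies at the mRNA entry channel. *Rplp0* and *Rpl23* are the large subunit genes with the lowest fold changes, and their windows hold no such run at the annotated start.
Rps6, chr4:86857353-86857382: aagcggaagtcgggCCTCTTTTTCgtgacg
Rpl13a, chr7:45128731-45128760: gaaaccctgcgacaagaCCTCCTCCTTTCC
Rps18, chr17:33955651-33955680: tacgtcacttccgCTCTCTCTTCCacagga
Rpl27a, chr7:109519180-109519209: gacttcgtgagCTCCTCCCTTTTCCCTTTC
Rps9, chr7:3704026-3704055: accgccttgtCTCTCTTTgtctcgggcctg
Rplp0, chr5:115559452-115559481: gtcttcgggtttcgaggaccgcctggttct
Rpl23, chr11:97782425-97782454: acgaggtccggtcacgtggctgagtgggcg

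RefSeq promoter sequences were matched for 60 of the 80 genes, and 28 of them (46.7%) had such a run, 16 of 37 in the large subunit (43.2%) and 12 of 23 in the small subunit (52.2%). Among 16404 other protein-coding genes 21.7% had one, as did 18.35% of all 32851 promoter windows. A gene counted if any of its annotated starts had the run, and only the strand of the gene was searched. The run describes letters at an annotated start and does not show where transcription began in these cells. Of the tested genes with a run, 25 of 28 had a fold change below 0, with a median log2 fold change of -0.17. Of those without one, 24 of 30 did, with a median of -0.18, so the fold changes of both sets lay at about the same level.

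Most ribosomal protein genes had slightly lower levels in the OSKA + 4OHT group, and the differences of single genes were small. Of the 78 tested genes, 66 had a log2 fold change below 0, against 40.7% of all 15382 tested genes. Their median log2 fold change, on the log2(TPM + 0.5) scale used throughout, was -0.17, whereas the median of all tested genes was 0.14 and that of the other 1331 genes averaging 100 TPM or more was 0.08. Relative to the median of all tested genes it was -0.32, and 75 of the 78 genes lay below that median. Only *Rpl39l* had a log2 fold change beyond 0.5 in either direction. By limma-trend with Benjamini-Hochberg adjustment over all tested genes, 1 ribosomal protein gene, *Rplp0*, fell at an adjusted p-value under 0.05 (background 1.97% of all tested genes) and 0 rose (background 3.52%, or 5.49% in either direction). At an unadjusted p-value under 0.05 there were 11 lower genes, against 7.18% of all tested genes, and 1 higher gene, against 14.1%. None of them also passed an absolute log2 fold change of 1, as 4.23% of all tested genes did.

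**Figure D1:**
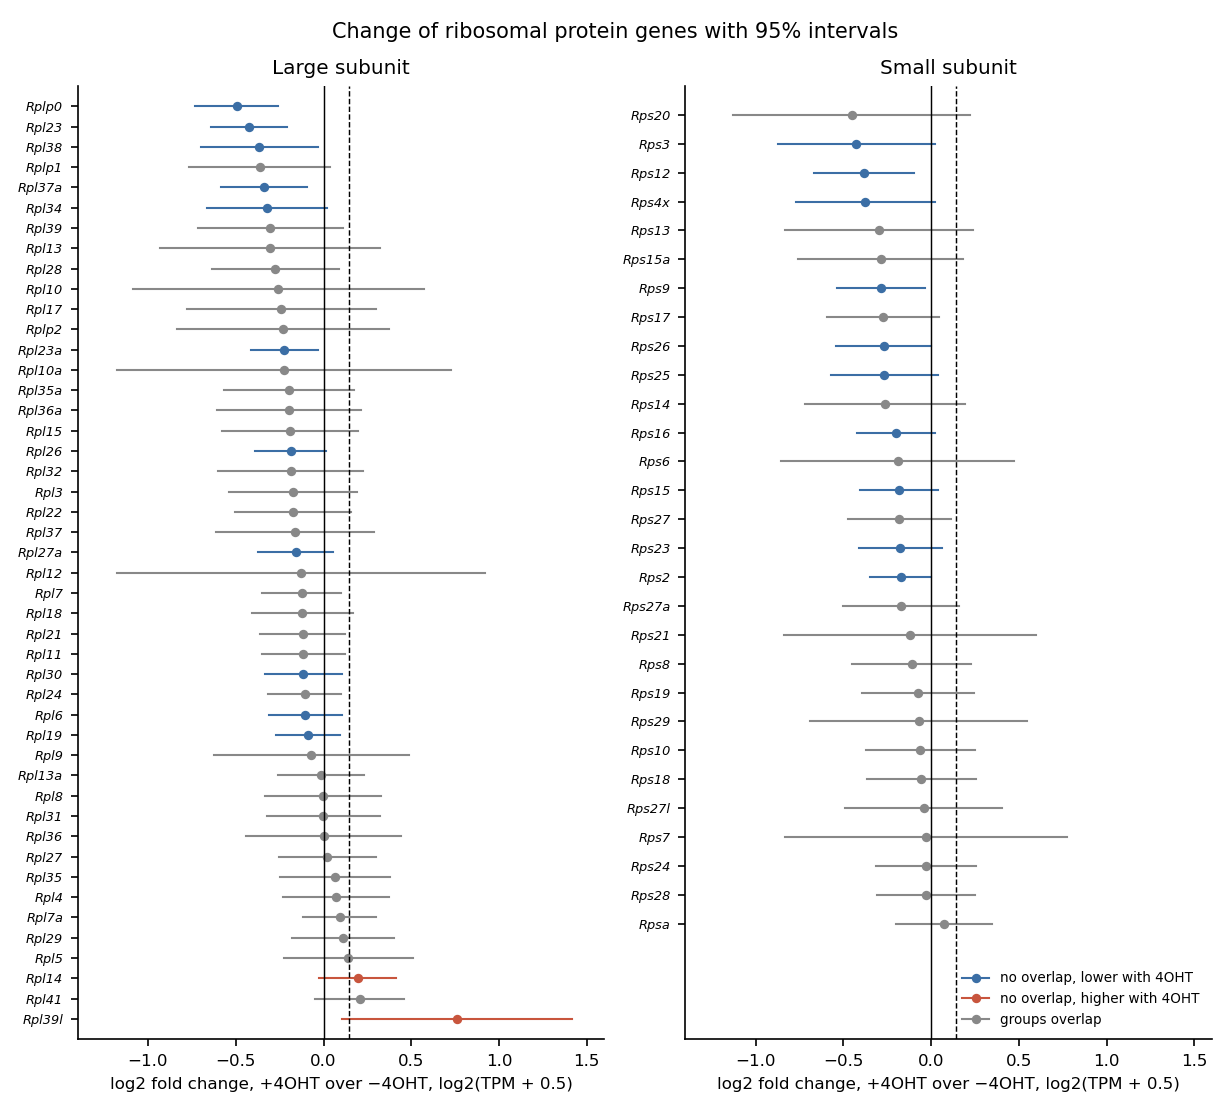
Each point is the log2 fold change of a gene, OSKA + 4OHT over OSKA − 4OHT (3 wells each), with its 95% interval from limma-trend as a line. The large subunit is on the left and the small subunit on the right, ordered by fold change, for 75 of the 78 tested genes. The solid vertical line is 0 and the dashed line is the median of all tested genes, 0.14. Blue and red mark genes whose groups do not overlap. Most points of both subunits lie left of 0, and *Rpl39l* lies farthest to the right.

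Both subunits had more genes below 0 than above. The 47 large subunit genes had a median log2 fold change of -0.16 (-0.30 relative to all tested genes), with 37 below 0 and 10 above. The 31 small subunit genes had a median of -0.18 (-0.33 relative to all tested genes), with 29 below 0 and 2 above, and 0 of them were called by limma-trend, although 5 were lower at an unadjusted p-value under 0.05 (1.97% and 7.18% of all tested genes). In 23 of the 78 genes every OSKA + 4OHT well was below every OSKA − 4OHT well, 12 of the large and 11 of the small subunit, against 10% of all tested genes. In 2 genes, *Rpl14* and *Rpl39l*, every OSKA + 4OHT well was above, against 18.1% of all tested genes. For any 1 gene, 3 wells against 3 limit a 2-sided exact permutation test to p-values of 0.1 or more.

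How far these genes lay below 0 depended on the scaling. With TMM scaling (a trimmed mean of log ratios), which moved the median of all tested genes from 0.14 to 0.03, 74 of the 78 genes had a fold change below 0 and their median was -0.29. Relative to all tested genes the median was -0.33 with TMM scaling and -0.32 without, and 75 of 78 genes lay below the median of all tested genes either way. After quantile normalization 54 of 78 genes had a fold change below 0, and 53 lay below the median of all tested genes. Their median was then -0.07, and their distance from the median of all tested genes shrank to -0.066. TMM scaling called 6 genes lower, among them *Rplp0*, *Rpl23*, *Rpl37a*, *Rps9* and *Rps12*, against 3.08% of all tested genes.

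The library labelled OSKA + 4OHT replicate 3 stood apart. It held the lowest value of 51 of the 78 genes, and its median deviation from the mean of the 6 libraries was -0.25 on the log2 scale, against values from -0.03 to 0.13 in the other libraries. Without it, 52 of 78 genes had a fold change below 0 and their median was -0.08, while the median of all tested genes was 0.19, so the genes lay -0.27 from that median and 74 of 78 were below it. OSKA + 4OHT replicate 3 also had the highest mitochondrial share, 20.8% of all TPM against 13.9% to 19.3% in the other libraries. The part of the mitochondrial share in these values was not tested.

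The share of all TPM held by the 80 genes was 6.06%, 6.59% and 6.60% in OSKA − 4OHT replicates 1 to 3 and 5.95%, 6.08% and 5.23% in OSKA + 4OHT replicates 1 to 3. The means were 6.42% ± 0.309 and 5.75% ± 0.457 (SD, n = 3 each), and the groups overlapped, since OSKA + 4OHT replicate 2 was above OSKA − 4OHT replicate 1. As a share of the TPM of nuclear protein-coding genes, the values were 8.99%, 9.59% and 9.62% against 8.33%, 8.52% and 7.97%. On this scale, chosen after the mitochondrial shares were seen, the means were 9.40% ± 0.354 and 8.27% ± 0.279 (SD, n = 3 each), and the groups did not overlap. TPM keeps no sequencing depth, so no counting interval is given.

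**Figure D2:**
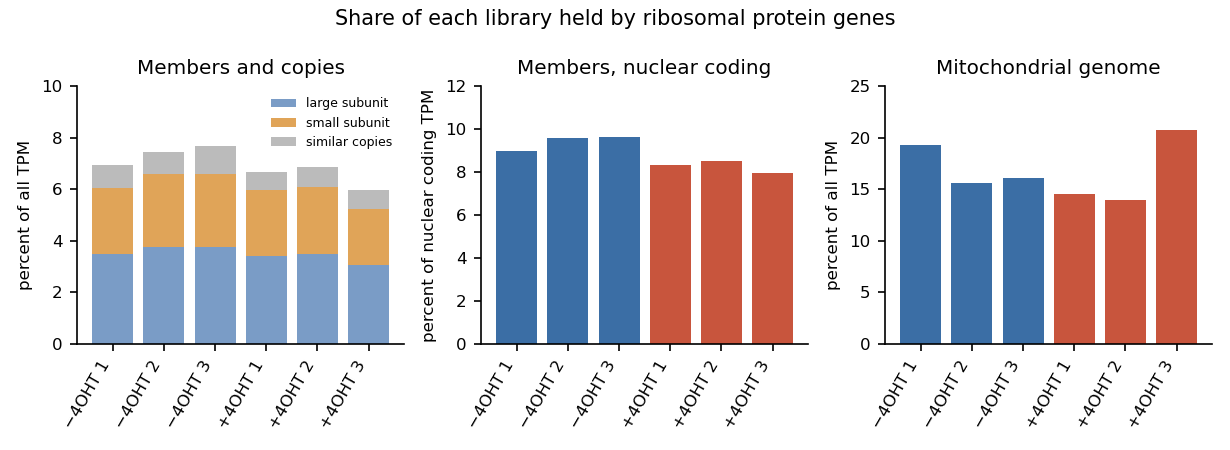
Bars are single libraries, 3 per group, and axes start at 0. The left panel stacks large subunit genes, small subunit genes and their similar pseudogene copies as a percent of all TPM. The middle panel gives the members as a percent of nuclear protein-coding TPM, 8.99% to 9.62% in OSKA − 4OHT and 7.97% to 8.52% in OSKA + 4OHT. The right panel gives the mitochondrial genome's share, highest in OSKA + 4OHT replicate 3.

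The stalk of the large subunit, which recruits the elongation factors, is built on *Rplp0* with the acidic proteins of *Rplp1* and *Rplp2*. Here and below, values of the wells stand in the order of replicates 1, 2 and 3. *Rplp0* (ENSMUSG00000067274, chr5:115559467-115563727, plus strand, GRCm38) had 1534, 1512 and 1633 TPM in the OSKA − 4OHT wells and 1060.5, 1228 and 1041 TPM in the OSKA + 4OHT wells. The lowest OSKA − 4OHT well was well above the highest OSKA + 4OHT well. Its mean fell from 1559.6 ± 64.0 to 1109.7 ± 103 TPM (SD, n = 3 each), or -0.49 on the log2 scale (SE 0.098, limma-trend adjusted p = 0.0417). This call was lost without any 1 of the 6 wells, with adjusted p-values from 0.0718 to 0.16 by the same method. *Rplp0* is also known as *Arbp*, the gene to which the study's quantitative PCR values were normalised.

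*Rplp1* was the most abundant of all these genes, with 1696, 2278 and 2301 TPM in the OSKA − 4OHT wells and 1589, 1881 and 1393 TPM in the OSKA + 4OHT wells. The groups overlapped, because OSKA − 4OHT replicate 1 was below OSKA + 4OHT replicate 2, and the log2 fold change of -0.36 had a limma-trend adjusted p of 0.275. *Rplp2*, listed at about 1 order of magnitude less, had a log2 fold change of -0.23, with wells from 221 to 315 TPM and from 169.9 to 313 TPM that overlapped over most of their range.

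*Rpl23*, a protein of the subunit interface, had 986, 918 and 874 TPM in the OSKA − 4OHT wells and 663, 703 and 699.9 TPM in the OSKA + 4OHT wells. The groups were far apart for their spread, with means of 926 ± 56.5 and 689 ± 22.4 TPM (SD, n = 3 each), and its log2 fold change was -0.43 (SE 0.090). The limma-trend adjusted p was 0.0501, just outside the threshold, and over the alternative settings it went from 0.0323 with TMM scaling to 0.210 without the trend. It was under 0.05 in 3 of them, the others being a filter of 5 TPM and scaling without the members, and from 0.0798 to 0.149 with 1 well left out. *Rpl38*, known for its part in translating developmental regulators, had 749, 871 and 877 TPM and 742, 651 and 553 TPM, which did not overlap by a small margin (log2 fold change -0.37, limma-trend adjusted p = 0.197).

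**Figure D3:**
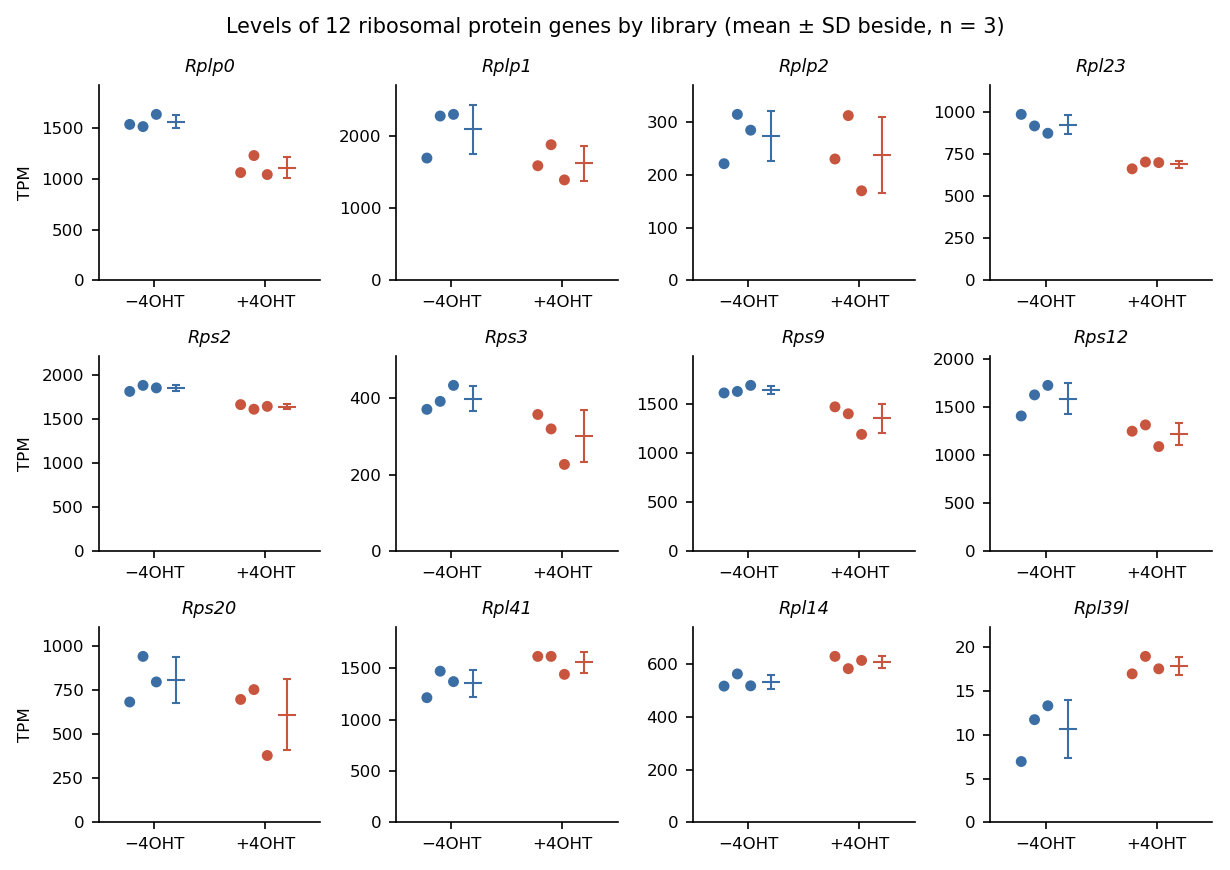
Dots are the TPM of single wells and the bars beside them the mean ± SD (n = 3), for 12 genes, with OSKA − 4OHT in blue and OSKA + 4OHT in red on axes that start at 0. *Rplp0*, *Rpl23*, *Rps2*, *Rps3*, *Rps9* and *Rps12* show groups that do not overlap with OSKA + 4OHT lower, and *Rpl14* and *Rpl39l* show OSKA + 4OHT higher.

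At the mRNA entry channel of the small subunit lie the proteins of *Rps2*, *Rps3* and *Rps9*, and in all 3 genes the OSKA + 4OHT wells were lower without overlap, as 10% of all tested genes were. These 3 genes were grouped after the levels had been opened, so the count only describes them. *Rps2* had 1816, 1884 and 1856 TPM in the OSKA − 4OHT wells and 1666, 1614 and 1646 TPM in the OSKA + 4OHT wells. It was the most abundant small subunit gene and among the tightest, with a log2 fold change of -0.17 (SE 0.072, limma-trend adjusted p = 0.232). *Rps9* had 1608, 1623 and 1685 TPM against 1467, 1397 and 1187 TPM, a log2 fold change of -0.28 (limma-trend adjusted p = 0.182). *Rps3*, which also has roles in DNA repair, had 371, 392 and 434 TPM against 358, 319.9 and 227 TPM, a log2 fold change of -0.43 (limma-trend adjusted p = 0.257).

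Other small subunit genes with low fold changes differed in how far their wells scattered. *Rps20*, the lowest at -0.45, had 682, 940.3 and 796 TPM against 696, 752 and 379 TPM, and its groups overlapped (limma-trend adjusted p = 0.416). The well at 379 TPM was OSKA + 4OHT replicate 3. *Rps12* had 1409, 1628.5 and 1727 TPM against 1251, 1316 and 1091 TPM without overlap, a log2 fold change of -0.38 (limma-trend adjusted p = 0.131).

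At the mRNA exit side and the platform, *Rpsa*, which is also known as the laminin receptor, was the small subunit gene with the highest fold change. It had 904, 962 and 1059.7 TPM in the OSKA − 4OHT wells and 914, 1069.8 and 1100.4 TPM in the OSKA + 4OHT wells, a log2 fold change of 0.07 within the spread between wells. *Rps28* had a log2 fold change of -0.028, with groups that overlapped. *Rps14* had 736, 861 and 976 TPM against 810, 802 and 549.8 TPM, a log2 fold change of -0.26 with overlap. *Rps26* had 1165, 1217 and 1129 TPM against 845, 1026 and 1053 TPM without overlap (log2 fold change -0.27, limma-trend adjusted p = 0.232). So 3 of these 4 genes had a fold change below 0, against 40.7% of all tested genes, with a median log2 fold change of -0.15. Among 7 genes around the polypeptide exit tunnel, where the growing chain leaves the large subunit, 6 had a log2 fold change below 0, 1 of them at -0.0002. The groups did not overlap in 3 of the 6. Of all tested genes 40.7% were below 0 and 10% were lower without overlap. Both these 7 genes and the 4 before them were grouped after the levels had been opened, so the counts only describe them. The most abundant of the 7, *Rpl23a*, had 1719.6, 1642 and 1662 TPM against 1499.5, 1364 and 1439.7 TPM, a log2 fold change of -0.22 (limma-trend adjusted p = 0.173).

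*Rpl5* and *Rpl11* form a particle with the 5S ribosomal RNA that binds MDM2, the ubiquitin ligase of p53, when ribosome assembly fails. *Rpl5* had 279, 355 and 396 TPM in the OSKA − 4OHT wells and 358, 367 and 401 TPM in the OSKA + 4OHT wells (log2 fold change 0.14). Of its sum with the pseudogene copies 57.5% lay in the copies, and its log2 fold change was -0.035 with them added and -0.049 without OSKA − 4OHT replicate 1 and OSKA + 4OHT replicate 3, the pair of libraries highest in mitochondrial RNA. *Rpl11* had 1139, 1259.6 and 1309 TPM against 1227, 1108 and 1087 TPM (log2 fold change -0.12). Neither passed the test, and the wells of both genes overlapped. Of 7 genes known from inherited Diamond-Blackfan anaemia, a failure of red cell production, 6 had a fold change below 0, with a median log2 fold change of -0.12. The groups did not overlap in 1, *Rps26*. These 7 were picked after the levels had been opened, so the counts describe only them. Of all tested genes 40.7% were below 0 and 10% were lower without overlap.

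*Rpl13a* and *Rps18*, often used as reference genes, differed by less than the spread between wells. *Rpl13a* had 1188, 1299 and 1229 TPM against 1174, 1368 and 1148 TPM, and its log2 fold change of -0.014 had a 95% interval from -0.26 to 0.23. *Rps18* had 774, 907 and 849.8 TPM against 943, 768 and 733 TPM, and its log2 fold change of -0.056 had a 95% interval from -0.37 to 0.25. These intervals do not reach the fold change of *Rplp0*, -0.49, which is the lowest of all tested ribosomal protein genes. The 95% interval of *Rplp0*, from -0.73 to -0.26, overlaps that of *Rps18* and ends next to that of *Rpl13a*. The difference between the genes was not tested.

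The 3 genes with the highest fold changes belong to the large subunit. *Rpl39l*, a paralog of *Rpl39* best known from male germ cells, had 6.94, 11.7 and 13.3 TPM in the OSKA − 4OHT wells and 16.9, 18.9 and 17.5 TPM in the OSKA + 4OHT wells. It was the lowest of the tested genes in level, its groups did not overlap and its scatter was larger in OSKA − 4OHT. Its log2 fold change was 0.76 (SE 0.27, limma-trend adjusted p = 0.176), and 0.49 without OSKA − 4OHT replicate 1, its lowest well. *Rpl41*, which encodes the shortest ribosomal protein, had 1213, 1471 and 1369 TPM against 1615, 1615 and 1439.9 TPM, a log2 fold change of 0.21 with overlap. *Rpl14* had 516, 562 and 517 TPM against 629, 582 and 614 TPM without overlap, a log2 fold change of 0.19 (limma-trend adjusted p = 0.292). With its pseudogene added, the groups of *Rpl14* overlapped and the log2 fold change was 0.02.

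Of the other paralogs, *Rpl3l* was listed at 0 in 5 libraries and at 1.65 TPM in OSKA + 4OHT replicate 1, and *Rpl10l* was listed at 0 in all 6, so neither was tested. *Rps27l*, a paralog of *Rps27* induced by p53, had 302, 308 and 316 TPM against 349, 341 and 226 TPM, and *Rps27* had 690.1, 736 and 813 TPM against 677, 721 and 578 TPM. Their log2 fold changes were -0.043 and -0.18, and the groups of both overlapped. *Rps4l* has a matching symbol but is annotated as a transcribed processed pseudogene, and had 30.6, 39.6 and 40.9 TPM against 58.5, 61.7 and 50.4 TPM (log2 fold change 0.62, limma-trend adjusted p = 0.108).

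Reads of 50 bases cannot always tell a ribosomal protein gene from its copies, and several genes were listed at a low level beside a copy at a high one. Counted over the annotated protein-coding transcripts, the median share of 50-base windows that also occur in a pseudogene was 30.6%, the highest was 85.5%, and in 19 of the 80 genes it was over 50%. In 77 genes at least 1 similar copy was listed, 607 copies in all, and 18 copies had a mean of at least 100 TPM. The first 30 coding bases of *Rps6* and *Rps7* are shown with the matching stretch of the copy with the most TPM, from the GENCODE M21 transcripts on GRCm38, with mismatched bases in capitals. The *Rps6* gene (chr4:86854660-86857412, minus strand) and *Rps6-ps4* (chr2:75191073-75191822) match throughout. *Rps7* (chr12:28630854-28635953, minus strand) and *Gm6472* (chrX:152909505-152910155) differ at 1 of the 30 bases.
Rps6: atgaagctgaacatctccttccccgccacc
Rps6-ps4: atgaagctgaacatctccttccccgccacc
Rps7: atgttcagctcgagcgccaagatcgTgaag
Gm6472: atgttcagctcgagcgccaagatcgGgaag

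*Rps7* was the small subunit gene with the lowest level, at 85.0, 141.9 and 128.0 TPM in the OSKA − 4OHT wells and 106, 173 and 78.7 TPM in the OSKA + 4OHT wells. Its pseudogene *Gm6472* was listed at 1026, 1128 and 1167 TPM and 936, 971 and 805 TPM in the same libraries, so 89.5% of their sum with the minor copies went to the copies. Summed, the values were 1119.9, 1269.95 and 1295 TPM against 1042, 1159.8 and 887 TPM, close to the level of other ribosomal protein genes, and the log2 fold change went from -0.031 to -0.26. *Rps6* had 429, 371 and 443 TPM against 352, 539.7 and 250.05 TPM, with a coefficient of variation of 38.6% in OSKA + 4OHT. Summed with its copies it had 1262, 1238 and 1175 TPM against 1188, 1199 and 1371 TPM, the coefficient of variation in OSKA + 4OHT was 8.18% and the log2 fold change moved from -0.19 to 0.03. *Rpl12* (82.8% in copies) went from a coefficient of variation of 47.1% in OSKA + 4OHT to 6.33%, and its groups, which overlapped before, no longer did (summed log2 fold change -0.23).

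*Rpl10a* and its copies traded values between libraries of the same group. The gene had 728, 449.6 and 395 TPM in the OSKA − 4OHT wells and 454, 259 and 689 TPM in the OSKA + 4OHT wells, while *Rpl10a-ps1*, whose windows all occur in the gene, was listed at 0, 390.1 and 496 TPM and at 234, 520.2 and 0 TPM. Wells with a high value for the gene had 0 for the copy, and the sums were from 688 to 891 TPM in all 6. *Rpl39* behaved otherwise. It had 613, 668 and 662 TPM against 508, 666 and 427 TPM, and *Rpl39-ps* had 335, 669 and 811 TPM against 0, 807 and 0 TPM. The sum scattered more than the gene, with a coefficient of variation in OSKA + 4OHT of 72.5% against 22.8%. Over the 76 tested genes with a copy, adding the copies lowered the scatter between wells in 44 and raised it in 26. With copies added, 65 of 78 genes had a fold change below 0, and the share of TPM held by genes and copies was 6.95%, 7.43% and 7.68% against 6.65%, 6.88% and 5.97%, which did not overlap.

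**Figure D4:**
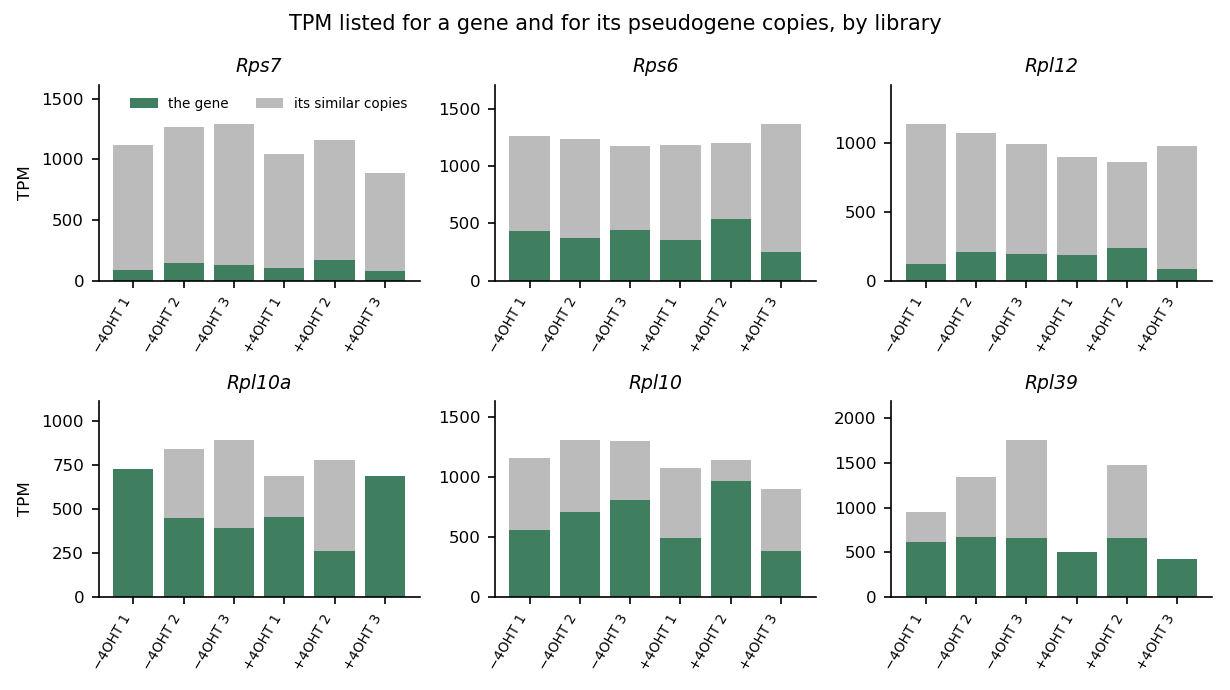
Bars give TPM per library for 6 ribosomal protein genes (green) with the sum of their similar pseudogene copies stacked on top (grey), on axes that start at 0. For *Rps7*, *Rps6* and *Rpl12* most of the sum is in the copies, and for *Rpl10a* the split changes between libraries while the total stays from 688 to 891 TPM. The copies of *Rpl39* are at 0 in OSKA + 4OHT replicates 1 and 3.

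Ribosomal proteins outside the symbol rule had no common direction. Of 7, *Rps27rt* was listed at 0 throughout, 3 of the others had a fold change below 0 and 3 above, and 0 were called by limma-trend with Benjamini-Hochberg adjustment (background 3.52% higher). Of the 6, 1 was higher at an unadjusted p-value under 0.05 and 2, *Rpl22l1* and *Rpl7l1*, were higher without overlap, against 14.1% and 18.1% of all tested genes. *Rack1*, a scaffold on the small subunit, had a log2 fold change of -0.40, and *Fau*, whose product is made as a fusion with a ubiquitin-like protein, had -0.05. The paralogs *Rpl22l1* (0.15), *Rpl36al* (0.42) and *Rpl7l1* (0.58) lay above 0. *Rpl7l1* had 35.4, 28.1 and 36.5 TPM against 58.4, 48.7 and 43.0 TPM without overlap (limma-trend adjusted p = 0.145).

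The other mRNAs of the TOP class, mostly translation factors, had a median log2 fold change of -0.05 over 20 genes, 13 below 0 and 7 above. At an unadjusted p-value under 0.05 there were 6 lower and 0 higher genes (7.18% and 14.1% of all tested genes), and the groups did not overlap in 6 lower and 3 higher genes (10% and 18.1%). The elongation factor *Eef1a1* was called, as 1.97% of all tested genes were called lower, from 9074, 9232 and 9620.2 TPM to 7604, 7709 and 7153 TPM, and fell by 0.31 on the log2 scale (limma-trend adjusted p = 0.0481). Of 23 other initiation factors 15 had a fold change above 0 (median 0.18) and 0 were called by limma-trend, although 1 lower and 4 higher genes had an unadjusted p-value under 0.05 (7.18% and 14.1% of all tested genes). Of 16 genes of mTORC1 and TOP mRNA control, *Larp4*, which binds and stabilises mRNAs including this class, rose from 25.5, 21.5 and 20.9 to 45.0, 39.6 and 41.3 TPM (log2 fold change 0.88, limma-trend adjusted p = 0.032), where 3.52% of all tested genes were called higher. The groups did not overlap in 4 lower genes and 1 higher gene of this list (10% and 18.1% of all tested genes). At an unadjusted p-value under 0.05 there were 1 lower and 1 higher gene (7.18% and 14.1% of all tested genes). The lowest fold change among the genes without overlap, -0.68, was that of *Eif4ebp1*, the translation repressor 4E-BP1 (limma-trend adjusted p = 0.113). The list median was -0.13, and *Larp1*, the TOP mRNA binding repressor, had -0.03 with overlap.

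The lists of genes that build ribosomes had medians above 0. RNA polymerase I genes, which transcribe the ribosomal RNA, had a median of 0.25 with 11 of 15 above 0, and ribosome assembly factors a median of 0.23 with 42 of 62 above 0, with 0 called by limma-trend with Benjamini-Hochberg adjustment in either list. At an unadjusted p-value under 0.05 there were 0 lower and 1 higher RNA polymerase I genes and 2 lower and 14 higher assembly factors, where all tested genes had 7.18% lower and 14.1% higher. The mitochondrial ribosomal protein genes, nuclear genes for the separate ribosome of mitochondria, had a median of 0.33 with 65 of 78 above 0, with 1 lower and 16 higher at an unadjusted p-value under 0.05, and 1 was called, against 3.52% of all tested genes called higher. This was *Mrpl27*, which rose from 30.4, 31.2 and 24.4 to 51.7, 70.02 and 48.6 TPM (log2 fold change 0.96, limma-trend adjusted p = 0.0482). These lists are described beside the median of all tested genes, 0.14, and no list was tested.

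**Figure D5:**
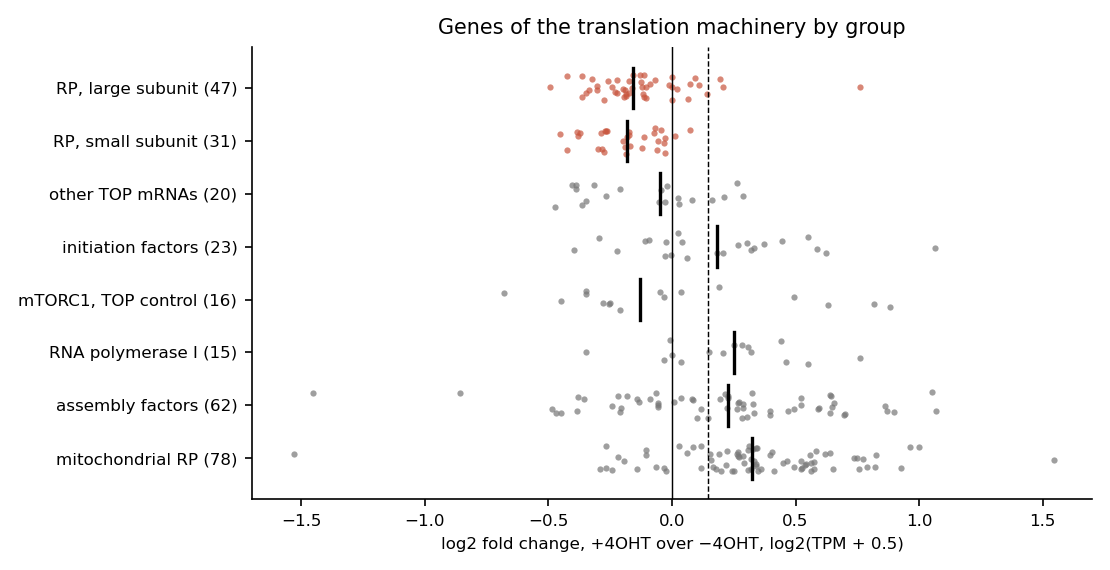
Each dot is the log2 fold change of a gene (OSKA + 4OHT over OSKA − 4OHT, 3 wells each), spread vertically at random within its group, and the thick bar is the group's median. The number of tested genes stands in brackets, the solid line is 0 and the dashed line is the median of all tested genes. Medians are -0.16 and -0.18 for the ribosomal protein (RP) genes of the large and small subunit and 0.33 for mitochondrial ribosomal proteins.

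Markers of other cell states moved between the same groups. The 10 fibroblast markers summed to between 6410 and 8220 TPM in OSKA − 4OHT wells and between 4873 and 6280 TPM in OSKA + 4OHT wells. Their levels ranged widely, with OSKA − 4OHT means of 3844 TPM for *Vim*, 1641 TPM for *Col1a2* and 5.66 TPM for *Pdgfra*. Of the 10, 5 had a fold change below 0 and 5 above, *Pdgfrb* and *Col1a2* fell (log2 fold changes -1.65 and -0.88), and *Col3a1* and *Lum* rose (1.23 and 2.37). The 10 pluripotency markers summed to between 3.77 and 5.84 TPM and between 53.7 and 62.9 TPM. All 8 tested had a fold change above 0, 7 of them without overlap (18.1% of all tested genes), and 4 were called higher. Over all tested genes 1.97% were called lower and 3.52% higher. The 10 macrophage markers summed to between 149.7 and 179.6 TPM and between 113.7 and 118.2 TPM. Among them 7 had a fold change below 0 and 3 above, and 1 was called lower, *Lyz2*. Its mean was 95.2 TPM in OSKA − 4OHT and 51.8 TPM in OSKA + 4OHT, a large part of these sums. Without overlap, 2 macrophage markers were lower and 1 was higher (10% and 18.1% of all tested genes). Endothelial, erythroid and neural lists summed to under 100 TPM in every well, with 0 called by limma-trend. Of their genes 2 endothelial, 2 erythroid and 3 neural ones were tested, and 1 endothelial and 1 neural gene were higher at an unadjusted p-value under 0.05, against 14.1% of all tested genes. The skeletal muscle list, with *Myod1* and *Myog* at 0, had 1 lower gene, *Acta1*. The part of these cell states in the levels of the ribosomal protein genes was not tested.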

How the data were processed

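Libraries of 6 wells were analysed, 3 per group (OSKA − 4OHT and OSKA + 4OHT). The authors trimmed 50-base single-end reads of stranded polyA libraries with Trim Galore and quantified them with Salmon against the mouse transcriptome. Versions and annotation release are not given in the sources used here. The deposited values are TPM per gene, scaled to the same total in every library, so depth is not kept and no count test was run. The authors also deposited for each gene a log2 fold change and log2 mean level, an F score and a p-value from edgeR, which hold their own comparison and were not used.

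Symbols, biotypes and positions came from GENCODE M21 (GRCm38), matched by Ensembl identifier for 54097 of 54331 genes, and start sites from RefSeq (GRCm38.p6). Whether the authors used these annotations is not known. Groups were compared with limma-trend (limma 3.58.1, R 4.3.3) on log2(TPM + 0.5) over genes averaging at least 1 TPM, with Benjamini-Hochberg adjustment over all of them. The method was tested on simulated data. A similar copy is a pseudogene of which at least 10% of the 50-base windows occur in the gene.

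The ribosomal protein genes, roles and lists were chosen with earlier results of these data known, and the roles after the levels had been opened. Named genes are the called ones, the 3 highest and lowest fold changes and the 3 highest levels per subunit, paralogs, reference genes, *Rps6*, *Rpl5*, *Rpl11*, the list of ribosomal proteins outside the rule, and the called genes of each list. Genes beyond this rule (*Rplp2*, *Rpl37a*, *Rpl27a*, *Rps14*, *Rps26*, *Larp1*, *Eif4ebp1*, *Vim*, *Pdgfra* and those of the copies) were named after their values were seen. Alternatives were other pseudocounts, filters, scalings and variance models, added copies, a replicate block and leaving out each well. Tables were made with Python 3.11.15 and pandas 2.3.3. Results of a few genes under this rule are not reported here.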

Additional observations from a re-analysis of the deposited data

How the results depend on the processing

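The ribosomal protein genes kept a median log2 fold change below 0 and below the median of all tested genes in each setting run. The number of large subunit genes called (1, by limma-trend with Benjamini-Hochberg adjustment) was 0 with no filter, without the trend, with the replicate block, from 0 to 0 with 1 well left out and 0 without OSKA − 4OHT replicate 1 and OSKA + 4OHT replicate 3, the pair highest in mitochondrial RNA, where 0 of all 15382 genes were called. It was 2 with a filter of 5 TPM, 2 when the members were left out of the scaling, 2 when scaled to nuclear protein-coding genes, also with copies added, and 4 with TMM scaling, which called 2 small subunit genes where the other settings called 0. Relative to all tested genes, the large subunit median of -0.30 was -0.064 after quantile normalization and from -0.31 to -0.24 with 1 well left out, lowest in size without OSKA − 4OHT replicate 3. The small subunit median of -0.33 was -0.081 after quantile normalization, -0.41 with copies added, -0.41 with copies added and nuclear scaling, and from -0.37 to -0.29 with 1 well left out. The share of TPM differed by -0.66 percentage points, by -1.13 as a share of nuclear protein-coding TPM, by -1.43 with copies added too, and by -0.84 to -0.40 with 1 well left out, smallest without OSKA + 4OHT replicate 3. The cause of these shifts was not tested. The adjusted p of *Rplp0* was above 0.05 in 10 settings, for example 0.125 with no filter, 0.174 without the trend and 0.146 with the block (limma-trend or limma with Benjamini-Hochberg adjustment), and its fold change stayed below 0 in each. Some genes that were not called, such as *Rpl5*, *Rps6* and *Rpl13a*, changed sign in at least 1 setting. The nuclear scaling, the left-out pair and their combinations were chosen after seeing the data. Same-numbered wells correlated at 0.0235, 0.0341 and 0.0837 in their deviations from the group means across genes. OSKA + 4OHT replicate 1 correlated best with another number, and each other well correlated best with its own number. Because these correlations were small, the numbers were not taken to pair wells. With the replicate number as a block, the genes called fell from 845 to 47.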
